A study of Mus musculus with 20 samples.

Results

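Gene expression was compared between bipolar cells and rods of the same control retinas, with neurogenic cells of those retinas as the starting point. The material was single-cell RNA sequencing of retinal explants, that is cultured pieces of retina, from wildtype CD1 mice with the age given as postnatal day 5 (P5). The explants had been electroporated with a GFP control construct, which the series' design text describes as an empty plasmid of the pCAGIG type, in which a broadly active CAG promoter drives expression. Cells positive for GFP were then isolated, a step meant to keep cells that took up the plasmid. Uptake by each cell was not tested here. The comparison used the 4 P5 control libraries, called controls 1 to 4 here, and the cell types named by the authors. It covered 2654 bipolar cells, 10364 rods and 1711 neurogenic cells, together 14729 of the 17932 cells of those libraries and of the 79009 cells in the 20 libraries of the series. Counts of molecules (UMIs, unique molecular identifiers) were summed per library and cell type, which gave 12 sums, and the types were compared within libraries. The age label and the design text differ, since that text speaks of 2 or 5 days of treatment. In the same way, it names NR2F1 and NR2F2 constructs where the title names MEIS factors. The description of the control plasmid comes from that same text and could not be checked here.

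Controls 1 to 4 held 477, 906, 964 and 307 bipolar cells, 4319, 2136, 2686 and 1223 rods, and 287, 346, 887 and 191 neurogenic cells. Bipolar cells made up 15.7% ± 6.30 (SD, n = 4 libraries) of all cells of a library and rods 58.0% ± 9.52. The 12 sums ranged from 3291712 to 15848192 UMIs. Depth per cell differed between the types: the median ran from 6941 to 15689 UMIs in bipolar cells, from 2463 to 7053 in rods and from 7686 to 17277 in neurogenic cells. Control 1 stood apart in its mitochondrial UMIs, with a median of 8.31% in bipolar cells and 10.1% in rods, the highest of the 4 libraries in both types. A GFP UMI was present in 17932 of 17932 cells, and 27 cell barcodes occurred in more than 1 of the 4 libraries. A doublet caller, set to expect 6%, marked 192 of the 17932 cells (1.07%). In controls 1 to 4 these were 1 of 6292, 22 of 3957, 154 of 5724 and 15 of 1959. Few cells were marked outside control 3, and least in control 1, so that unmarked doublets may remain. Nothing in the labels says that the libraries came from separate animals or litters, so p-values measure only the spread between these libraries.

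In the late retina, dividing progenitors give rise to neurogenic cells, which leave the cell cycle and become rods, bipolar cells or other late neurons. Rods are the photoreceptors of dim light. Bipolar cells are the interneurons that carry photoreceptor signals to the inner retina, ON types through a metabotropic glutamate receptor and OFF types through ionotropic ones. Both fates pass through a state that expresses Otx2, a homeodomain transcription factor. Rods then depend on Nrl and its target Nr2e3. Prdm1, a zinc-finger repressor also called Blimp1, is known to hold back bipolar genes in cells that become photoreceptors. The authors named the cell types from clusters of these same cells, so the differences below describe the named types and are no test of them.

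Most genes differed between the named types. Of 13782 genes tested, 3993 (29%) were higher in bipolar cells than in rods and 4218 (30.6%) were lower, at an adjusted p under 0.05 in edgeR with the library as a block. Together these were 59.6% of the genes tested, so a call alone says little about a gene. Differences of at least 1 on the log2 scale were found upward in 1998 genes (14.5%) and downward in 1958 genes (14.2%). In 5654 genes (41%) the 4 bipolar sums and the 4 rod sums did not overlap, in either direction. Without TMM factors, the scaling that sets most genes near no change, the calls split into 3736 higher and 4566 lower. Below, a level is in CPM, UMI counts scaled to an equal total per sum, after TMM scaling unless said otherwise. A log2 difference is bipolar cells less rods. The value after ± is, unless given as SD, a standard error worked back from the F statistic of the edgeR test. It is not the spread of the ratios between libraries, which can be wider where a type is near 0. In summed cells, a type with fewer positive cells and a type with less RNA per cell cannot be told apart.

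**Figure D1:**
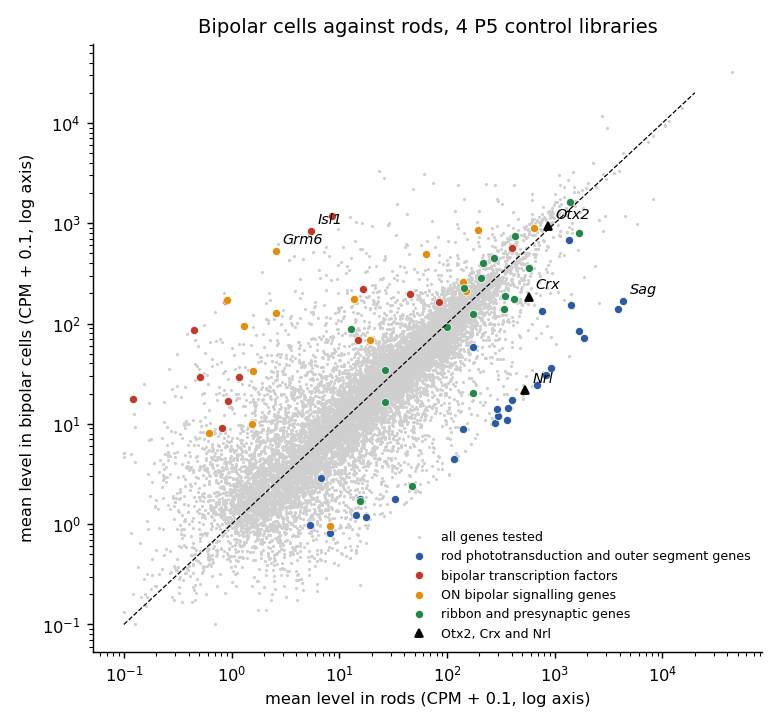
Mean CPM + 0.1 over the 4 control libraries in rods (x axis) and in bipolar cells (y axis), both on log scales, with 1 point per gene tested. Members of 4 gene lists are coloured and the black triangles mark Otx2, Crx and Nrl. The rod phototransduction genes lie below the diagonal and most bipolar transcription factors and ON bipolar genes above it. The ribbon and presynaptic genes lie on both sides, and Otx2 sits near the diagonal.

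The transcription factors known from bipolar cells were all higher there: 14 of 14 list members were called higher in bipolar cells (29% of all genes tested were), with a median log2 difference of 4.40 beside -0.05 over all genes. In 12 of the 14 the bipolar and rod sums did not overlap (41% of all genes).

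Members of the list showed different starting points. The levels are given for controls 1 to 4 in order. Isl1, a LIM-homeodomain factor of ON bipolar cells, stood at 908, 915, 635 and 888 CPM in bipolar cells, 14.2, 5.22, 0.989 and 0.909 CPM in rods and 144, 213, 115 and 115 CPM in neurogenic cells (log2 difference 7.55 ± 0.61, adjusted p = 4.60e-06). Its neurogenic level lay between the other 2 types in each library. That level mixes the authors' neurogenic clusters 4 and 11, with means of 254 and 6.77 CPM per library total. Against cluster 11 alone, rods were no longer called lower (-0.69, adjusted p = 0.481). Vsx1, a homeodomain factor found in subsets of cone bipolar cells, stood at 131, 237, 151 and 149.5 CPM in bipolar cells, 1.38, 1.52, 0.165 and 0.101 CPM in rods and 0.227, 2.85, 0.412 and 1.49 CPM in neurogenic cells. It was therefore near the limit of detection in both other types, and the rod and neurogenic sums overlapped. The difference from rods was 7.65 ± 0.42 on the log2 scale (adjusted p = 6.02e-07). Bhlhe23, a basic helix-loop-helix factor known from rod bipolar cells, differed by 8.01 ± 0.36 on the log2 scale (adjusted p = 3.15e-07), with 141, 79.3, 68.6 and 53.8 CPM in bipolar cells against 0.565, 0.652, 0.165 and 0 CPM in rods. Prdm8, a zinc-finger factor needed for rod bipolar and some cone bipolar cells, varied little between libraries. It stood at 211, 247, 186 and 238 CPM in bipolar cells, 15.9, 16.1, 15.6 and 18.3 CPM in rods and 33.6, 34, 31 and 42.9 CPM in neurogenic cells (log2 difference 3.74 ± 0.09, adjusted p = 3.16e-08).

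A second group of these factors was as high in neurogenic cells as in bipolar cells, or higher, with low levels in rods. Irx5, an Iroquois homeodomain factor, stood at 9.26, 14.7, 28.1 and 14.5 CPM in bipolar cells, 0.690, 0.652, 1.24 and 0.707 CPM in rods and 24.5, 67.9, 63.3 and 65.8 CPM in neurogenic cells. Bipolar cells were thus above rods (log2 difference 4.23 ± 0.27, adjusted p = 1.35e-06) and below neurogenic cells (-1.74 ± 0.20, adjusted p = 8.70e-05), though above those of the authors' cluster 4 alone (2.22, adjusted p = 0.00351). Six3, a homeodomain factor of the early eye, showed the same order, with 1.06 ± 0.16 from rods and -0.65 ± 0.16 from neurogenic cells, where the call was lost without control 4 (-0.57, adjusted p = 0.0652), without the library block (-0.65, adjusted p = 0.152) and against cluster 4 alone (-0.27, adjusted p = 0.17). Bhlhe22 was called higher than in rods (log2 difference 2.38 ± 0.29, adjusted p = 7.42e-05) but did not pass the test against neurogenic cells (-0.62 ± 0.27, adjusted p = 0.0939). It was called lower there without control 3 (-0.74, adjusted p = 0.0109) and with only the 2 types compared (-0.61, adjusted p = 0.0048). Against cluster 4 alone it was also called lower (-1.21, adjusted p = 0.0099), and against cluster 11 alone higher (1.08, adjusted p = 0.0323). Irx6 had 502 UMIs in bipolar cells and 1 in rods over the 4 libraries, so no fold is given. The weakest member was Neurod4 (log2 difference 0.77 ± 0.30, adjusted p = 0.0491), whose sums overlapped and which lost its call in 7 of the settings tried, control 1 left out among them. Without control 1, 13 of the 14 members were called.

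Rod and photoreceptor transcription factors went the other way. Of 12 listed factors 11 passed the filter on low counts (Esrrb did not), 10 were lower in bipolar cells than in rods (30.6% of all genes were) and 1, Rorb, was higher. The median log2 difference was -3.89. Nrl, the leucine-zipper factor that sets rod identity, stood at 31, 18.8, 18.7 and 17.5 CPM in bipolar cells, 448, 559, 442 and 669 CPM in rods and 23.8, 10.3, 13.9 and 13.4 CPM in neurogenic cells (log2 difference -4.66 ± 0.25, adjusted p = 5.18e-07). Bipolar and neurogenic sums overlapped, and every rod sum was above both. Within each library, however, the bipolar level was above the neurogenic one, though the difference did not pass the test. It was called with only the 2 types compared (0.49, adjusted p = 0.0135), without control 1 (0.56, adjusted p = 0.0395) and against cluster 11 alone (0.85, adjusted p = 0.0131). Nr2e3, the nuclear receptor downstream of Nrl, stood at 67.2, 50.1, 39.1 and 33.8 CPM in bipolar cells and 993, 1574, 1284 and 1601 CPM in rods (log2 difference -4.88 ± 0.25, adjusted p = 4.44e-07). Samd7 and Samd11, which take part in silencing of non-rod genes in photoreceptors, differed by -4.87 ± 0.25 and -4.62 ± 0.28. Casz1, a zinc-finger factor of late progenitors and rods, differed by -4.25 ± 0.25, and here bipolar cells were also below neurogenic cells (-1.95 ± 0.23, adjusted p = 1.25e-04).

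Prdm1 and Neurod1 had smaller log2 differences than Nrl. Prdm1 stood at 17.4, 19.9, 103 and 35.9 CPM in bipolar cells, 246, 227, 462 and 301 CPM in rods and 32.2, 21.5, 76 and 43.5 CPM in neurogenic cells (log2 difference -3.10 ± 0.24, adjusted p = 3.65e-06). Control 3 was the highest library in all 3 types. Neurod1, a basic helix-loop-helix factor of photoreceptors, stood at 355, 171, 328 and 297 CPM in bipolar cells, 1419.7, 1099, 2414 and 2528 CPM in rods and 697, 233, 742 and 758 CPM in neurogenic cells (log2 difference -2.67 ± 0.20, adjusted p = 2.91e-06). Against all neurogenic cells it was lower in bipolar cells (-0.99 ± 0.19) and higher in rods (1.68 ± 0.19), but against neurogenic cells of the authors' cluster 11 alone it was higher in bipolar cells too (1.40, adjusted p = 0.000181). Mef2d, a MADS-box factor with photoreceptor targets, was lower in bipolar cells than in rods (log2 difference -0.82 ± 0.09, adjusted p = 4.54e-05) but higher than in neurogenic cells (0.54 ± 0.10), a call that ended against cluster 4 alone (0.17, adjusted p = 0.144).

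The factors that both lineages use were not alike. Otx2 stood at 778, 717, 1243 and 1026 CPM in bipolar cells, 636, 549, 1334 and 954 CPM in rods and 933, 503, 998 and 868 CPM in neurogenic cells. The sums of the 3 types overlapped, and with all libraries and both neurogenic clusters no comparison passed the test: bipolar cells less rods gave 0.16 ± 0.15 on the log2 scale (adjusted p = 0.355). Against cluster 4 alone Otx2 was called lower in bipolar cells (-0.37, adjusted p = 0.0258) and in rods (-0.54, adjusted p = 0.00192). Against cluster 11 alone it was called higher in bipolar cells (1.73, adjusted p = 0.000199) and in rods (1.56, adjusted p = 0.000279). Without control 1, Otx2 was called higher in bipolar than in neurogenic cells (0.36, adjusted p = 0.0276, against 0.19 with it). Crx, the Otx2-related factor that drives photoreceptor genes, was found in both types at different levels, 211, 151, 187 and 191 CPM in bipolar cells and 544, 510.3, 563 and 669.7 CPM in rods (log2 difference -1.64 ± 0.14, adjusted p = 6.19e-06). Its neurogenic level, 233, 114, 217 and 218 CPM, overlapped with that of bipolar cells. Against cluster 4 alone Crx was called lower in bipolar cells (-0.66, adjusted p = 0.000772), and against cluster 11 alone higher (1.84, adjusted p = 0.000154). Rax, a homeodomain factor of progenitors and photoreceptors, was lowest in bipolar cells (31.5, 10.1, 35.8 and 16.7 CPM), higher in neurogenic cells (185, 162, 219 and 142 CPM) and highest in rods (318, 237, 442 and 325 CPM). Against cluster 11 alone, Rax was not called higher in rods (0.45, adjusted p = 0.1485). Rorb, a nuclear receptor upstream of Nrl, differed by 0.34 ± 0.13 on the log2 scale (adjusted p = 0.0421) between bipolar cells and rods. Its sums overlapped, and the call was lost in 7 of the settings tried. Rorb was lower in both types than in neurogenic cells (-0.67 ± 0.13 and -1.01 ± 0.13), in bipolar cells not without the library block (adjusted p = 0.0653).

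**Figure D2:**
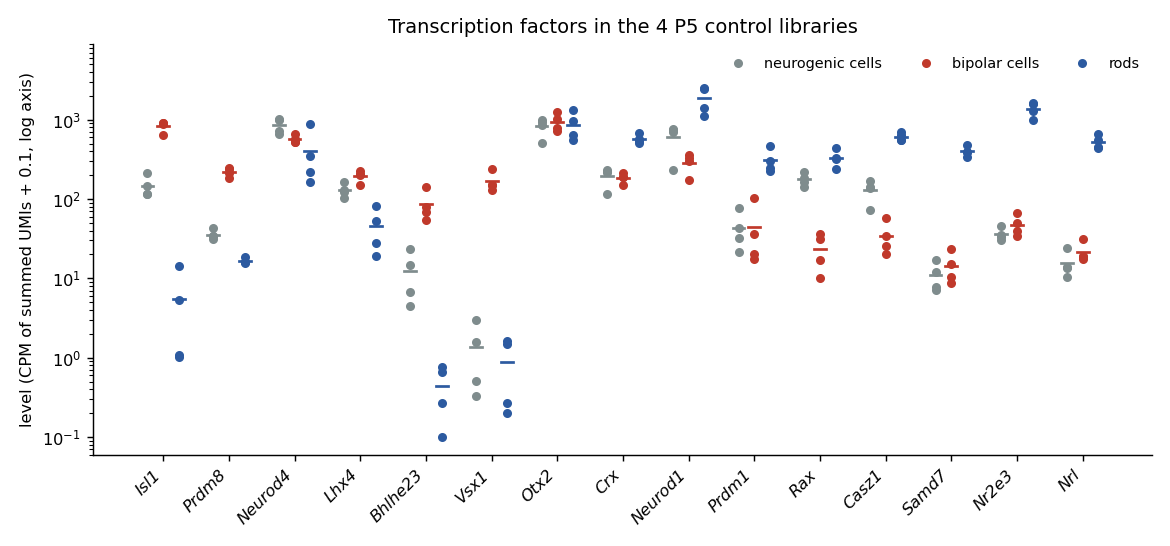
CPM + 0.1 on a log axis for 15 transcription factors, with 1 point per control library in bipolar cells, neurogenic cells and rods. The bipolar points of Isl1 and Vsx1 stand far above the rod points, those of Nrl and Nr2e3 far below, and the points of Otx2 overlap.

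Promoter sequences were searched for the letters that OTX2 and CRX are known to bind, and for other motifs. Both strands were searched for TAATCC, the core recognised by CRX and OTX2. Its reverse complement is GGATTA. The other motifs were TAATTA, a homeodomain core, which reads alike on both strands. TGCTGA, part of the site of MAF-type factors such as NRL, was searched on both strands. The last was CANNTG, the E-box of basic helix-loop-helix factors. The motifs were counted separately, so that they may overlap. The windows run from 250 bases before to 50 bases after the start of transcription, in the RefSeq table for GRCm38.p6. Of the genes higher in rods by at least 1 on the log2 scale, 1398 of 1958 had a promoter in the table, and of those higher in bipolar cells 1383 of 1998. TAATCC occurred in 9.42% of promoters of the former (173 of 1837), in 5.06% of promoters of the latter (97 of 1916) and in 6.42% of all promoters (1266 of 19727). TAATTA occurred in 3.59%, 2.40% and 3.90% of the same sets, TGCTGA in 16.8%, 16.5% and 17.8%, and CANNTG in 67.4%, 66.7% and 68.2%. No test was made of these shares, and a match is a description of letters, not of binding.

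Among the listed genes, TAATCC was found in 9 of 20 promoters of the rod phototransduction list (45%; 18 of its 26 genes had a promoter) and in 3 of 17 promoters of the ON bipolar list (17.6%; 12 of 15 genes). The lists are short, and both lineages are represented. The promoters below were chosen after the motif counts were seen: 3 genes higher in rods that carry the motif, 2 ON bipolar genes that carry it, and Grm6, an ON bipolar gene whose window holds neither TAATCC nor TAATTA. Each is printed 5′ to 3′ on the gene's own strand, with TAATCC or GGATTA in capitals.
Sag (chr1:87803430-87803729, plus strand): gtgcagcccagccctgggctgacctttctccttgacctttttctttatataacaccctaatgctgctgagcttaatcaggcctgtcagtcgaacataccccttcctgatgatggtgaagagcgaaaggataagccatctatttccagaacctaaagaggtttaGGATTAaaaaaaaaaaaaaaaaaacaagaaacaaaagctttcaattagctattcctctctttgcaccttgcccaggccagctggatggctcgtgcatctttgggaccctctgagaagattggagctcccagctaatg
Crx (chr7:15879906-15880205, minus strand): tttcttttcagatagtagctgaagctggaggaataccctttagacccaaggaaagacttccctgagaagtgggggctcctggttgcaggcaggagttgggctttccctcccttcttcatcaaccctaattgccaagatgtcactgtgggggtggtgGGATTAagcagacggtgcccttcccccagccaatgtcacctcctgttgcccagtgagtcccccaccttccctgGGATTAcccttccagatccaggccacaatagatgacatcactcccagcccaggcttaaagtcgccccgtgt
Samd7 (chr3:30746043-30746342, plus strand): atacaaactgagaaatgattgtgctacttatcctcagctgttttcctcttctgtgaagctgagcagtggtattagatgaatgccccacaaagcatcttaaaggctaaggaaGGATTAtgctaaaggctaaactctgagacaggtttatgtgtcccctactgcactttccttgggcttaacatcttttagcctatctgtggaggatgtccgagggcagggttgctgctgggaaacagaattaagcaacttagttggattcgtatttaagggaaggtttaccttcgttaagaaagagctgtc
Cabp5 (chr7:13397905-13398204, plus strand): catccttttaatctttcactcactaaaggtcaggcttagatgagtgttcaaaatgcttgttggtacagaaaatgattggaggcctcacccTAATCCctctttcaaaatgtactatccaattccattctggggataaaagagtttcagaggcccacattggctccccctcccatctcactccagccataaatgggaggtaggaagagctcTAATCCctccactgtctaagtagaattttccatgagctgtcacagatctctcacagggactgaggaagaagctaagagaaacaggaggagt
Trpm1 (chr7:64153585-64153884, plus strand): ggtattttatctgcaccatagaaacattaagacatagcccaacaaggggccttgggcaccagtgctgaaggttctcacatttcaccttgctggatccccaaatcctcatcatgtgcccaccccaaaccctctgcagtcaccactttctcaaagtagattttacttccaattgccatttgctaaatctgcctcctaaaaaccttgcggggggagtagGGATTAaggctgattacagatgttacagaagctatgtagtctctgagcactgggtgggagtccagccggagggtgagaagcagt
Grm6 (chr11:50850435-50850734, plus strand): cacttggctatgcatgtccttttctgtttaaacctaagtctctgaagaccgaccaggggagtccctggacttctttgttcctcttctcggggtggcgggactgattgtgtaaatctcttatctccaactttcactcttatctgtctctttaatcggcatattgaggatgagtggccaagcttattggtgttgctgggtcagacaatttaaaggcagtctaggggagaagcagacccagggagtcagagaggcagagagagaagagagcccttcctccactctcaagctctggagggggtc
The Crx and Cabp5 windows hold 2 matches each, and those of Sag, Samd7 and Trpm1 hold 1 each. For Trpm1 the table has a second promoter, which holds none.

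The phototransduction machinery separated the types as a block. All 26 listed rod phototransduction and outer segment genes passed the filter and were lower in bipolar cells than in rods (30.6% of all genes were), with a median log2 difference of -4.59, and in 24 the sums did not overlap (41% of all genes). Without control 1, 25 were called and the median was -5.01. Sag, the rod arrestin that ends the light response, stood at 339, 176, 59.8 and 97.7 CPM in bipolar cells, 4366, 6012, 2946 and 3740.3 CPM in rods and 228, 129, 58.5 and 85.2 CPM in neurogenic cells (log2 difference -4.95 ± 0.30, adjusted p = 9.15e-07). Pdc, phosducin, which binds the subunits of transducin, stood at 215, 136, 101 and 104 CPM in bipolar cells and 3086, 4518, 3442 and 4393 CPM in rods (log2 difference -4.89 ± 0.27, adjusted p = 5.94e-07). In both genes every rod sum was above every bipolar sum, and control 1 was the highest bipolar sum.

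Many members with different jobs in the outer segment gave log2 differences of similar size, while those of some others were much smaller. The channel subunits Cnga1 and Cngb1 differed by -5.17 ± 0.22 and -4.84 ± 0.25, the phosphodiesterase subunits Pde6a, Pde6b and Pde6g by -4.03 ± 0.38, -4.78 ± 0.30 and -4.93 ± 0.32, and the transducin gamma subunit Gngt1 by -4.75 ± 0.40. The receptor kinase Grk1 differed by -4.72 ± 0.27, the calcium sensor Rcvrn (recoverin) by -5.08 ± 0.48 and Rgs9, which shuts transducin off, by -4.76 ± 0.28. Of the structural genes, Prph2 (peripherin) differed by -4.87 ± 0.25, Rp1 by -4.84 ± 0.29 and Rom1 by -3.26 ± 0.19. The smallest differences in the list were those of Unc119 (-1.01 ± 0.15), Guca1a (-1.11 ± 0.40) and Abca4 (-1.58 ± 0.26), and the call of Guca1a was lost in 7 of the settings tried. Transducin alpha, Gnat1, was near the limit of detection in every type, with 4.64, 10.1, 1.57 and 4.65 CPM in rods.

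Against neurogenic cells, where 44.6% of all genes were called in either direction, 2 of 26 of these genes were higher in bipolar cells, 1 lower and 23 not called, with a median log2 difference of 0.45. That count depended on the fit: with only the 2 types compared, 10 were higher and 2 lower of the 19 that passed the filter (median 0.44, with 23.3% of all genes higher and 25.6% lower), and with cluster 11 alone as neurogenic cells 8 were higher (26.3% of all genes). Without control 1, 4 were higher. Rods less neurogenic cells gave 25 higher, 0 lower and a median of 5.21 (33.1% and 31.9% of all genes were called higher and lower, 65% in all). The 25 were called by edgeR in the same fit, and the remaining gene was Abca4 (0.04 ± 0.25, adjusted p = 0.907). Unc119, a carrier of lipid-modified transducin, was among the 2 called higher. It stood at 736, 733, 711 and 527 CPM in bipolar cells, 1228, 1706, 1249 and 1210.3 CPM in rods and 393, 264, 251 and 200.1 CPM in neurogenic cells, so that bipolar cells were above the starting point without overlap (1.30 ± 0.15, adjusted p = 1.18e-04). Abca4, a retinoid transporter of the outer segment, was lower in bipolar cells (49.5, 35.9, 91.3 and 56.4 CPM) than in neurogenic cells (232, 127, 156 and 164 CPM) and in rods (252, 169, 163 and 114 CPM), but higher than in cluster 11 alone (1.90, adjusted p = 0.00164).

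The level of rod transcripts in bipolar cells was set against that in rods of the same library. For the 19 list genes with at least 100 CPM in rods, a filter on the type where they are high, the level in bipolar cells had a median of 3.93% of the rod level. Of the 19, 15 lay between 2 and 6%, and the range was 2.77 to 49.2%. The 7 list genes below 100 CPM in rods ran from 4.54% (Gucy2e) to 48.6% (Guca1a), with Gnat1 at 26.5%, Gucy2f at 13.4% and Slc24a1 at 11.8%. Here CPM is per library total, without TMM factors. In neurogenic cells the median was 2.76%, again with 15 of 19 between 2 and 6%, in amacrine cells, which should lack these genes, it was 8.88%, and in progenitors it was 1.72%. The bipolar median was 7.39% in control 1 and 3.31%, 2.91% and 2.49% in controls 2 to 4, and in amacrine cells control 1 reached 17.9%. Nrl stood at 4.13% of the rod level in bipolar cells, Nr2e3 at 3.64%, Samd7 at 3.54% and Samd11 at 4.28%, inside that range. The 4 of the 19 genes above it in bipolar cells were Unc119 at 49.2%, Abca4 at 35.6%, Gnb1, a G protein beta subunit of many cells, at 18.1% and Rom1, a structural protein of the outer segment discs, at 10.6%, and of the transcription factors tabulated Otx2 at 109.7%, Crx at 31.5%, Meis1 at 23.1%, Meis2 at 17.6%, Neurod1 at 15.9%, Prdm1 at 12.1%, Thrb at 8.79% and Rax at 6.62%. Amacrine cells were above these bipolar levels for Meis2 (148%), Meis1 (81.9%), Gnb1 (42.4%), Thrb (28.1%) and Rax (14.5%). They were below them for Abca4 (26.6%), Unc119 (12.4%), Crx (11.8%), Neurod1 (11.2%), Otx2 (11.1%), Rom1 (8.80%) and Prdm1 (7.6%). Neurogenic cells were above the bipolar levels for Abca4 (97.6%), Rax (52.5%), Meis1 (47.9%), Neurod1 (31.3%), Meis2 (30.8%) and Gnb1 (24.5%). Their levels were near the bipolar ones for Crx (32.6%), Prdm1 (12.8%) and Thrb (8.96%). For Otx2 (96.6%), Unc119 (20.1%) and Rom1 (7.58%) they were below them. The part that free RNA from rods or doublets have in these levels was not tested.

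**Figure D3:**
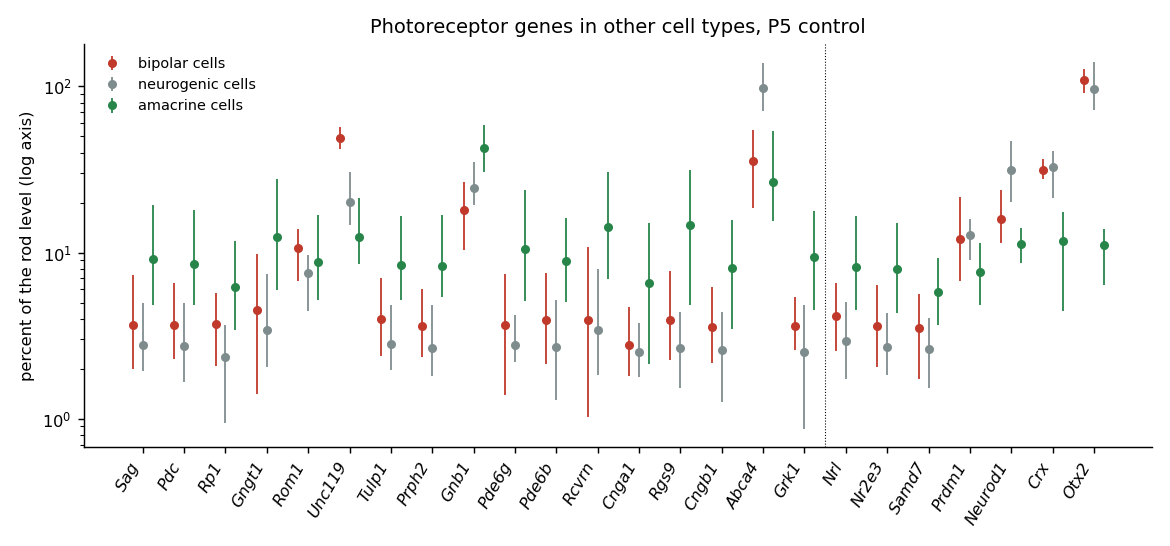
Level of 17 rod phototransduction genes and 7 transcription factors in bipolar, neurogenic and amacrine cells as a percent of the level in rods of the same library, on a log axis. Points are means of the 4 control libraries and bars run from the lowest to the highest library. Most rod genes lie between 2 and 6% in bipolar and in neurogenic cells, while Otx2, Crx, Unc119 and Abca4 stand above that range in both.

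ON bipolar signalling genes code for the cascade that opens a cation channel when glutamate falls. Of the 15 listed genes, 13 were higher in bipolar cells than in rods (29% of all genes were), 1 was lower and 1 was not called, with a median log2 difference of 2.89. Against neurogenic cells, 14 were higher and 1 lower (22.2% and 22.4% of all genes were called so), median 2.97. Grm6, the glutamate receptor mGluR6, stood at 427, 746, 447 and 506 CPM in bipolar cells, 3.39, 5.43, 0.412 and 0.606 CPM in rods and 2.04, 19, 1.79 and 0.298 CPM in neurogenic cells. It was low in both other types, whose sums overlapped, and the difference from rods was 8.02 ± 0.62 on the log2 scale (adjusted p = 3.64e-06). Trpm1, the cation channel, stood at 138, 335, 58.1 and 154 CPM in bipolar cells and 0.753, 1.52, 0.824 and 0.101 CPM in rods (log2 difference 7.64 ± 0.38, adjusted p = 3.92e-07). Gpr179, the receptor-like anchor of the complex, stood at 90.6, 116, 55.2 and 116 CPM and 1.26, 1.41, 0.824 and 1.31 CPM in the same order (log2 difference 6.24 ± 0.20, adjusted p = 1.27e-07).

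The G protein and its regulators followed with smaller differences. Gnao1, the alpha subunit, stood at 500.2, 586, 328 and 541 CPM in bipolar cells and 74.2, 59.6, 57.8 and 64.7 CPM in rods (log2 difference 2.89 ± 0.18, adjusted p = 9.91e-07). The gamma subunit Gng13 differed by 5.64 ± 0.47, and the regulators Rgs7 and Rgs11 by 1.99 ± 0.23 and 2.66 ± 0.34. The beta subunit Gnb3 was present in both types, at 977, 918, 919 and 747 CPM in bipolar cells and 604, 526, 834 and 613 CPM in rods. Its sums overlapped (log2 difference 0.47 ± 0.18, adjusted p = 0.0475) and its call was lost in 6 of the settings tried, while both types were above neurogenic cells (2.18 ± 0.19 and 1.71 ± 0.19). Prkca, a protein kinase C that marks rod bipolar cells, stood at 662, 1532, 362 and 875 CPM in bipolar cells and 297, 274, 78.4 and 127 CPM in rods (log2 difference 2.15 ± 0.32, adjusted p = 2.69e-04). Cabp5, a calcium-binding protein of bipolar cells, differed by 3.54 ± 0.48, and Car8, which is found in rod bipolar cells, by 4.46 ± 0.37.

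A pair of the listed genes did not follow the rest. Lrit3, a leucine-rich repeat protein that photoreceptors supply for the mGluR6 complex, was lower in bipolar cells (1.79, 0.426, 0.826 and 0.403 CPM) than in rods (9.16, 9.89, 5.11 and 8.08 CPM) and neurogenic cells (2.72, 7.42, 4.81 and 3.87 CPM), with no overlap (log2 difference -3.24 ± 0.45, adjusted p = 1.58e-04). Against neurogenic cells of cluster 4 alone the bipolar call was lost (-0.72, adjusted p = 0.349). Nyx, nyctalopin, which lies in the bipolar dendrite, was higher in bipolar cells (log2 difference 3.95 ± 0.44, adjusted p = 3.80e-05). Pcp2, a G protein modulator of rod bipolar cells, stood at 269, 589, 49.4 and 129 CPM in bipolar cells, 166, 114, 158 and 128 CPM in rods and 15.4, 8.75, 5.63 and 2.08 CPM in neurogenic cells. Bipolar and rod sums overlapped (log2 difference 0.42 ± 0.54, adjusted p = 0.525) and both lay above all neurogenic sums (4.79 ± 0.65 and 4.38 ± 0.64).

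OFF bipolar genes were also higher in bipolar cells than in rods, 7 of 8 (29% of all genes were) with 1 not called and a median of 5.42. Grik1, the kainate receptor subunit of OFF cone bipolar cells, stood at 381, 614, 1435 and 1087 CPM in bipolar cells, 6.46, 5.11, 7.91 and 19.2 CPM in rods and 55.2, 78, 31.3 and 69.1 CPM in neurogenic cells (log2 difference 6.52 ± 0.51, adjusted p = 3.77e-06). Its bipolar level varied more between libraries than that of Grm6, with control 3 highest for Grik1, while control 2 was highest for Grm6. Scgn, the calcium sensor secretagogin of cone bipolar cells, stood at 163, 138, 125 and 95.9 CPM in bipolar cells and 0.941, 1.20, 0.0824 and 0.202 CPM in rods (log2 difference 7.88 ± 0.51, adjusted p = 1.35e-06). Lhx3, a LIM-homeodomain factor of OFF cone bipolar cells, differed by 6.13 ± 0.33, and Gria2, an AMPA receptor subunit, by 3.43 ± 0.67. Tacr3, a tachykinin receptor of some OFF types, stood at 1.46, 13.7, 48.6 and 14.3 CPM in bipolar cells and 16.8, 35.2, 34.2 and 50.9 CPM in neurogenic cells. These overlapped, and the neurogenic sums were all above the rod sums (1.32, 0.761, 0.494 and 0.606 CPM). Tacr3 was called lower in bipolar than in neurogenic cells without control 3 (-1.89, adjusted p = 0.0216) and against cluster 4 alone (-1.88, adjusted p = 0.0237). Against cluster 11 alone it was called higher in bipolar cells (3.82, adjusted p = 0.0075) and was not called in rods (-0.14, adjusted p = 0.934). Gria1 was not called (log2 difference 0.69 ± 0.45, adjusted p = 0.213), but it was called higher without control 1, when all 8 genes were.

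Photoreceptors and bipolar cells share the ribbon synapse, and most listed ribbon and general presynaptic genes were higher in both than in neurogenic cells. Against neurogenic cells, 15 of 19 ribbon and presynaptic genes were higher in bipolar cells (22.2% of all genes were) and 17 of 19 in rods (33.1%), with medians of 1.28 and 1.79, and 0 and 1 were lower. The sizes depended on the neurogenic cluster: the medians were 0.74 and 1.09 against cluster 4 alone, and 3.21 and 4.5 against cluster 11 alone. Between bipolar cells and rods, 7 were higher, 10 lower and 2 not called, with a median of -0.50, beside 29% higher and 30.6% lower among all genes. Higher in bipolar cells were the release-site proteins Rims1 (3.0 ± 0.67) and Rims2 (0.80 ± 0.07), the calcium channel subunit Cacna2d4 (0.88 ± 0.14) and the complexin Cplx3 (0.71 ± 0.20). Lower in bipolar cells were the complexin Cplx4 (-4.38 ± 0.23), the vesicular glutamate transporter Slc17a7 (-3.12 ± 0.24), the calcium-binding protein Cabp4 (-3.19 ± 0.36) and the syntaxin Stx3 (-1.30 ± 0.19).

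The 2 complexins differed in opposite directions, though Cplx3 was well above Cplx4 in both types. Cplx3 stood at 549, 453, 445 and 361 CPM in bipolar cells and 250.5, 255, 328 and 249.5 CPM in rods, and Cplx4 at 3.57, 3.51, 0.689 and 1.41 CPM and 48.9, 76.4, 25.5 and 40.02 CPM in the same order. Neither pair of groups overlapped, although the call of Cplx3 was lost without control 2. Ctbp2, which codes for the ribbon protein RIBEYE and for a transcriptional corepressor from 1 gene, was lower in bipolar cells by little (log2 difference -0.50 ± 0.08, adjusted p = 5.14e-04). Rims1 was the 1 gene of the list that was lower in rods than in neurogenic cells: it stood at 59.1, 125, 80.6 and 90.3 CPM in bipolar cells, 35, 8.15, 2.88 and 5.15 CPM in rods and 45.9, 148, 60.7 and 81.3 CPM in neurogenic cells. Against cluster 4 alone the rod call of Rims1 was lost (-1.50, adjusted p = 0.0636). Syt1, the calcium sensor of release, did not pass the test (log2 difference 0.25 ± 0.17, adjusted p = 0.227), and its bipolar and rod sums overlapped.

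**Figure D4:**
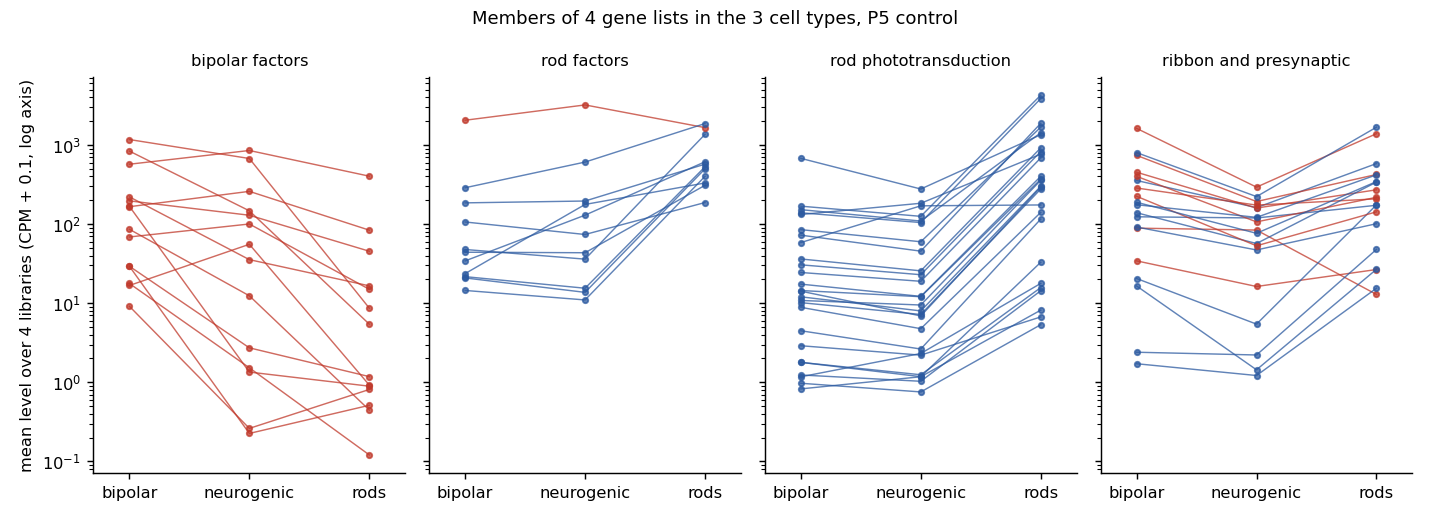
Mean CPM + 0.1 over the 4 control libraries on a log axis for the members of 4 gene lists in bipolar cells, neurogenic cells and rods, with 1 line per gene, red where bipolar cells were higher than rods and blue where they were lower. The bipolar factors run mostly upward to the bipolar side, the rod phototransduction genes upward to the rod side, and the ribbon genes upward to both.

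The neurogenic starting point was not uniform. The authors' neurogenic cells fell in 2 of their clusters, number 4 with 210, 187, 533 and 116 cells in controls 1 to 4 and number 11 with 77, 159, 354 and 75, while bipolar cells were 1 cluster and rods 3. Cluster 11 carried the Notch target Hes5 at 1389 ± 572 CPM (mean ± SD, n = 4 libraries, per library total) against 64.7 ± 33.4 in cluster 4. It also carried Rlbp1, the retinaldehyde-binding protein of Müller glia and late progenitors, at 847 ± 253 CPM against 9.52 ± 4.19. Cluster 4 had more Otx2, 1212 ± 286 CPM against 262 ± 106, and more Isl1, 254 ± 119 CPM against 6.77 ± 4.10. It also had more Neurod1, 943 ± 373 CPM against 106 ± 44.4, and more Crx, 295 ± 63.9 CPM against 50.8 ± 26.8. The means of these factors, known from both fates, were thus higher in cluster 4. These are genes of the cells that were clustered, so the values are a description.

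Most of the listed neurogenic genes were lower in both fates than in neurogenic cells. Of 16 neurogenic genes, 13 were lower in bipolar cells than in neurogenic cells (22.4% of all genes were) and 14 were lower in rods (31.9%), with medians of -2.95 and -3.13. Hes5 stood at 244, 1218, 659 and 583 CPM in neurogenic cells, 2.27, 8.94, 13.1 and 2.62 CPM in bipolar cells and 6.34, 17.9, 9.15 and 2.22 CPM in rods, and control 1 was the lowest neurogenic sum. Between bipolar cells and rods, 5 genes of the list were higher, 4 lower and 7 not called, shares near those of all genes (29% and 30.6%). The largest of these differences was that of Sox4, a factor of young neurons, at 1808, 793, 2371 and 1736 CPM in bipolar cells and 222, 77.7, 662 and 218 CPM in rods (log2 difference 2.75 ± 0.28, adjusted p = 2.16e-05). Insm1, a zinc-finger factor of neurons that have left the cycle, was the reverse at 82.3, 21.1, 94.5 and 52.6 CPM and 318, 214, 247 and 277 CPM (log2 difference -2.25 ± 0.27, adjusted p = 5.96e-05) and was the 1 gene of the list above neurogenic cells in rods. Notch1, the receptor, was lowest in bipolar cells (8.28, 2.98, 12.5 and 8.26 CPM), with 27.2, 22.3, 46 and 27.2 CPM in rods and 141, 137, 174 and 194 CPM in neurogenic cells.

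With only cluster 4 or only cluster 11 as the starting point, an alternative chosen after the data were seen, the counts changed. From cluster 4, 2254 of 13478 genes were higher (16.7%) and 2176 lower (16.1%) in bipolar cells, and from cluster 11, 3593 of 13642 were higher (26.3%) and 3568 lower (26.2%). Of the rod factors, 0 were higher and 5 lower in bipolar cells when cluster 4 was the start, and 7 were higher and 3 lower when it was cluster 11. All 5 factors shared by the lineages were lower in bipolar cells than in cluster 4, with a median of -0.73, and 3 were higher and 2 lower than in cluster 11. Calls turned to the other direction for Neurod1 and Abca4 in bipolar cells and for Car10, Grik1 and Prdm8 in rods when cluster 11 was the start, and for Irx5 in bipolar cells when it was cluster 4. Statements on bipolar cells or rods against neurogenic cells therefore rest on the mixture of these clusters.

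Within cluster 4, the share of cells with a Prdm1 UMI was lower among cells with an Isl1 UMI than among cells without one in 4 of 4 libraries. Each cell was thinned to 5000 UMIs, which kept 186, 178, 441 and 113 cells in controls 1 to 4. A Prdm1 UMI was found in 10.7% (95% exact interval 4.72 to 19.9%), 7.69% (3.38 to 14.6%), 24.0% (18.1 to 30.6%) and 15.9% (6.64 to 30.1%) of the cells with an Isl1 UMI. In the cells without one it was found in 18.9% (12.1 to 27.5%), 18.9% (10.7 to 29.7%), 38.6% (32.5 to 44.9%) and 27.5% (17.5 to 39.6%). The intervals, which cover counting error only, did not overlap in control 3 and overlapped in the other 3 libraries. Without thinning, the shares were 20, 13.4, 30.7 and 28.6% against 35.0, 31.7, 44.7 and 50.0%.

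Nrl and Crx gave less even differences. Nrl was found in 8.33, 4.63, 6.45 and 6.25% of the cells with an Isl1 UMI and in 9.80, 7.14, 6.27 and 7.69% of those without, which is lower in 3 of 4 libraries, with overlapping intervals in each. Crx was found in 65.3, 60.8, 75.94 and 76.6% against 79.3, 72.4, 75.98 and 80.3%, lower in 4 of 4 but by less than 0.1 percentage points in control 3. Without thinning, Crx was higher in the cells with an Isl1 UMI in 3 of 4 libraries (90.9, 81.9, 85.4 and 95.71% against 84, 91.7, 81.6 and 95.65%), and Nrl in 2 of 4 (21.8, 7.09, 7.87 and 12.9% against 30, 15, 6.39 and 10.9%). Otx2 was found in 96.0% to 100% of the cells of either kind, too near all cells to show a difference. Before thinning, the cells with an Isl1 UMI in the Prdm1 comparison had medians of 16729, 13104.5, 8228 and 16761 UMIs against 15997, 15398, 8233 and 15557. The pairs of genes were chosen after values were seen, the cells of a library are not replicates, and no test was made.

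**Figure D5:**
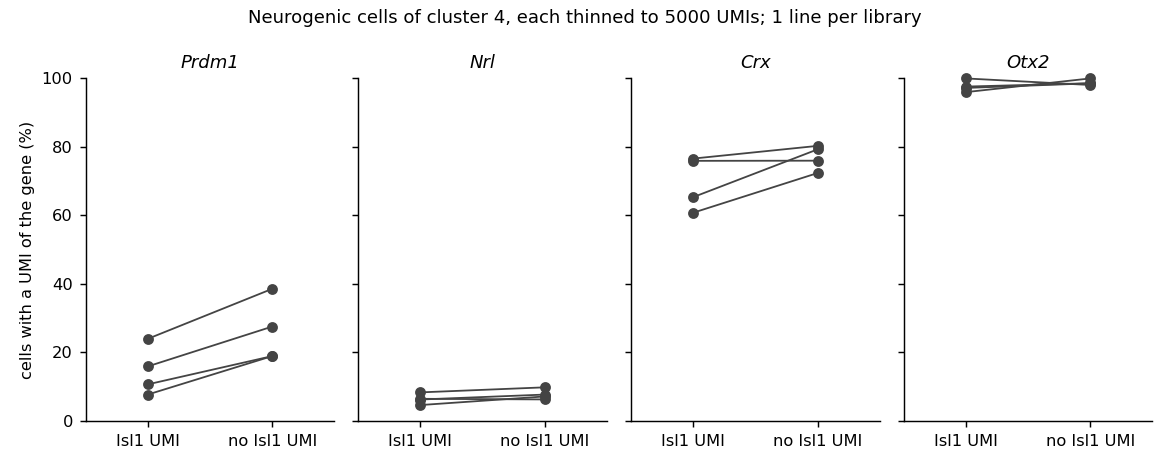
Percent of neurogenic cells of cluster 4 with a UMI of Prdm1, Nrl, Crx or Otx2, in cells with and in cells without an Isl1 UMI, after thinning each cell to 5000 UMIs. Each line is 1 control library. The 4 lines of Prdm1 run lower in cells with an Isl1 UMI, and those of Otx2 stay at 96.0% or above in both.

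Shares of cells with a UMI were compared at equal depth. After thinning each cell to 2000 UMIs, which left out 88 bipolar cells, 2079 rods, 23 neurogenic cells and 163 amacrine cells, Grm6 was found in 50.7% ± 10.2 of bipolar cells, 0.526% ± 0.697 of rods, 0.594% ± 0.974 of neurogenic cells and 0.732% ± 0.991 of amacrine cells (mean ± SD, n = 4 libraries). Without thinning these were 69.95% ± 10.9, 1.06% ± 0.959, 3.36% ± 3.71 and 1.31% ± 1.39. The thinned rod and neurogenic shares were below that of amacrine cells, which should lack the gene, but at 1000 UMIs they were above it (0.267% and 0.534% against 0.0670%), so no order is read from them. Unthinned, the neurogenic share reached 8.67% in 1 library, above the highest amacrine share of 3.23%. Nrl was found in 3.59% ± 2.70 of bipolar cells, 60.3% ± 9.99 of rods, 2.93% ± 1.92 of neurogenic cells and 5.83% ± 4.33 of amacrine cells (14.5% ± 8.98, 76.2% ± 15.8, 12.8% ± 8.65 and 14.2% ± 6.39 without thinning). The thinned bipolar share of this rod factor was below that of amacrine cells. The part of free RNA in these shares was not tested.

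Otx2 and Crx behaved differently from Nrl. Otx2 was found in 78.2% ± 8.94 of bipolar cells, 70.4% ± 13.3 of rods and 60.9% ± 6.57 of neurogenic cells, against 9.60% ± 4.38 of amacrine cells (95.6% ± 3.74, 81.6% ± 15.9, 77.9% ± 8.60 and 17.8% ± 5.87 without thinning). Crx was found in 29.2% ± 3.77, 65.8% ± 5.82, 28.2% ± 7.11 and 7.99% ± 6.75 in the same order (76.7% ± 11.7, 82.4% ± 12, 63.9% ± 11.1 and 19.6% ± 9.33 without thinning). Both genes were above the amacrine share in bipolar cells. Prdm1 was found in 8.21% ± 6.95 of bipolar cells, 38.4% ± 10.3 of rods, 7.0% ± 3.12 of neurogenic cells and 2.90% ± 2.73 of amacrine cells (22.5% ± 11.6, 56.5% ± 14.6, 24.2% ± 5.79 and 8.40% ± 5.24 without thinning), and the libraries overlapped between bipolar cells (2.98 to 18.1%) and amacrine cells (0.699 to 6.71%). Median depth in the 4 libraries ran from 4244.5 to 12441 UMIs in amacrine cells.

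Of the 4 NFI factors, which promote late fates and cell cycle exit of progenitors, all 4 were lower in bipolar cells than in neurogenic cells (22.4% of all genes were). Without control 4, or without the library block, 3 of the 4 were called lower there. Between bipolar cells and rods 1 was higher, 1 lower and 2 not called, near the shares of all genes (29% and 30.6%). Nfia was higher in bipolar cells (251, 77.5, 33.3 and 68.9 CPM) than in rods (19.96, 11, 18.6 and 7.07 CPM; log2 difference 2.72 ± 0.47, adjusted p = 6.46e-04), and control 1 was the highest bipolar sum. Nfic was lower in bipolar cells (46.8, 29.4, 49.3 and 57.8 CPM) than in rods (208, 213, 253 and 321 CPM; log2 difference -2.46 ± 0.11, adjusted p = 2.60e-07). Nfib and Nfix were not called between the 2 types (log2 difference 0.09 ± 0.35, adjusted p = 0.846 and log2 difference -0.26 ± 0.29, adjusted p = 0.468).

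Of 9 MEIS and partner genes, whose products bind DNA together as homeodomain proteins of the TALE class, 4 were higher in bipolar cells than in rods, 4 lower and 1 not called (29% and 30.6% of all genes were higher and lower). Meis1 stood at 87.2, 55, 67.3 and 65.5 CPM in bipolar cells, 393, 237, 255 and 279 CPM in rods and 181, 133, 137 and 124 CPM in neurogenic cells (log2 difference -2.07 ± 0.08, adjusted p = 2.52e-07). Bipolar cells were thus below and rods above the starting point, without overlap (30.8% and 45.3% of all genes did not overlap in these comparisons). Meis2 stood at 188, 91, 71.2 and 106 CPM, 551, 552, 934 and 701 CPM and 326, 102, 145 and 252 CPM in the same order (log2 difference -2.69 ± 0.33, adjusted p = 6.61e-05). Its bipolar level was below the neurogenic one in each library but did not pass the test. It was called lower with DESeq2 (-0.82, adjusted p = 0.028), without control 1 (-0.81, adjusted p = 0.0402) and with only the 2 types compared (-0.84, adjusted p = 0.00389). Against cluster 4 alone it was called lower (-1.32, adjusted p = 0.00896), and against cluster 11 alone higher (0.75, adjusted p = 0.0432). The partner gene Pbx3 was also lower in bipolar cells than in rods (-2.92 ± 0.22), while Meis3 (1.52 ± 0.13), Pbx4 (2.24 ± 0.32) and Pknox2 (2.23 ± 0.25) were higher. These libraries received no MEIS construct, so the levels are those of the control tissue. Among the 3 rod clusters, Meis2 stood at 1012 ± 282 CPM in cluster 0, which had the least Sag (1641 ± 1101 CPM), and at 411 ± 35.9 CPM in cluster 2, which had the most (7415 ± 593 CPM).

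Of 17 glycolysis genes, 6 were higher in bipolar cells than in rods, 7 lower and 4 not called, near the shares of all genes (29% and 30.6%). Ldha, the lactate dehydrogenase subunit that is high in photoreceptors, was the widest of these, at 186, 89.7, 169 and 120.3 CPM in bipolar cells, 1133, 1416, 1692 and 1633 CPM in rods and 296, 113, 182 and 216 CPM in neurogenic cells (log2 difference -3.45 ± 0.26, adjusted p = 2.85e-06). Aldoa, an aldolase, was also lower in bipolar cells (-1.79 ± 0.20), while Tpi1, the triose phosphate isomerase, was higher (1.06 ± 0.13). Of the 16 cell cycle genes, 10 passed the filter, and between bipolar cells and rods 1 was higher, 2 lower and 7 not called. Ccnd1, the D-type cyclin, stood at 129, 261, 360.4 and 295 CPM in neurogenic cells and at 8.45, 8.73, 10.6 and 10.3 CPM in bipolar cells and 9.23, 9.45, 8.65 and 8.59 CPM in rods.

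By size alone, the 12 largest differences in each direction were ranked among genes that were called, had a mean of at least 100 CPM in the higher type and did not overlap. The rule passed 725 genes upward and 658 downward. Besides the genes described, the upward group included Ndnf (7.95 ± 0.29), a secreted fibronectin-domain protein, Kcnmb2 (7.94 ± 0.35), a subunit of BK potassium channels, Trnp1 (7.79 ± 0.44), a nuclear protein, Lin7a (7.43 ± 0.57), a synaptic scaffold protein, and Car10 (7.21 ± 0.29), a protein related to carbonic anhydrases. Car10 stood at 3742, 2921, 3223 and 3531 CPM in bipolar cells, 34.1, 18.8, 26.4 and 13.5 CPM in rods and 712, 586, 342 and 513 CPM in neurogenic cells, all well apart. Ndnf stood at 658, 812, 427 and 589 CPM, 3.83, 4.13, 1.65 and 0.707 CPM and 89.2, 156, 53.6 and 68.8 CPM in the same order. The downward group held Synpo2 (-5.20 ± 0.27), an actin-binding protein, Rp1l1 (-5.02 ± 0.36), a relative of Rp1, and Rdh12 (-4.90 ± 0.29), a retinol dehydrogenase of photoreceptors. It also held 2 genes without an established name, 2310030A07Rik (-5.08 ± 0.22) and Gm44196 (-4.90 ± 0.31). The first of these is annotated as antisense, and the sources used here do not say whether counting used strand.

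Against neurogenic cells, the largest upward differences of bipolar cells by the same rule were Grm5 (7.68 ± 0.65), a metabotropic glutamate receptor, Vsx1, C130073E24Rik (7.13 ± 0.56) and the cadherin Cdh18 (7.07 ± 0.76). Grm5 stood at 108, 492, 43.4 and 159 CPM in bipolar cells and 1.14, 0.570, 1.10 and 0 CPM in neurogenic cells, with control 2 highest. The largest downward differences were Ass1 (-7.62 ± 0.33), an enzyme of arginine synthesis, Hes1 (-7.20 ± 0.40), Rlbp1 (-6.78 ± 0.39) and Crym (-6.75 ± 0.55), crystallin mu. For rods less neurogenic cells they included 2310030A07Rik, Rp1 and 4930419G24Rik (5.47 ± 0.21) upward, and Sparc (-6.69 ± 0.46), Ptn (-6.37 ± 0.58) and Gm29260 (-6.33 ± 0.46) downward. Hes1, Rlbp1, Sparc and Ptn are genes of progenitors and Müller glia.

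Summed marker levels were highest in the type of that name for bipolar cells and rods, while neurogenic cells also held markers of other types at high levels. In CPM per library total, the 10 bipolar markers summed to 2343 to 5176 in bipolar cells, 278 to 497 in rods and 656 to 923 in neurogenic cells. The 8 rod markers summed to 8805 to 14028 in rods, 230.3 to 713 in bipolar cells and 198 to 498 in neurogenic cells. The 8 neurogenic markers summed to 617 to 973 in neurogenic cells, 177 to 324 in bipolar cells and 119.5 to 252 in rods, and the neurogenic range overlapped that of amacrine cells (122 to 894). The 8 Müller glia markers were higher than these in the neurogenic cells and summed to 3116 to 4759 in neurogenic cells, 139 to 438 in bipolar cells and 346 to 1117 in rods, and the 9 cone markers to 753 to 2368 in rods and 172 to 346 in bipolar cells. The 7 progenitor markers summed to 573 to 1483 in neurogenic cells, 37.9 to 57.4 in bipolar cells and 28.5 to 55.3 in rods, with a neurogenic median (1101) above that of the neurogenic markers (735). The 8 amacrine markers stayed at 22.2 to 57.5 in bipolar cells and 63 to 167 in rods and summed to 170.2 to 275 in neurogenic cells, and of all marker lists only the ganglion cell marker Pou4f2 was at 0 in every sum. The part of these other types in the results was not tested.

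The P5 libraries with MEIS constructs, which entered no fit, gave a view of the same difference in other samples. Their bipolar cells and rods were named by the authors as in the controls, and the 24 genes were ranked between those named types. A shared direction is therefore no independent test. For the 24 genes ranked between bipolar cells and rods, 5 of 6 libraries had the direction of the controls in 24 of 24, and the first library with both MEIS1 and MEIS2 had it in 21. Of 122 list members called in the controls, those 5 libraries had the control direction in 118 to 121 and that library in 89. An exception in all 6 was Pknox1, a TALE partner of MEIS proteins, singled out after its values were seen. Its log2 ratio of bipolar cells to rods, on CPM + 1, ran from -0.51 to -0.28 in the controls and from 0.02 to 0.69 in the construct libraries. The first library with both MEIS1 and MEIS2 held 53 bipolar cells, in which Grm6 and Trpm1 were at 0, Isl1 stood at 38.1 CPM per library total and Otx2 at 1547. In the other 5 libraries, Isl1 in bipolar cells ran from 452 to 1008 and Grm6 from 227 to 694. No test was made of these values.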

How the data were processed

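Single-cell RNA was measured with the 10x Genomics 3′ kit (version 3.1). Per the submitters' processing notes, reads were processed with Cell Ranger on mm10, with an added GFP locus per the series' design text, and Seurat 5 was used. The authors deposited raw UMI counts per gene and cell, not normalized, with a description of each cell that gives its library, cluster and cell type, and mitochondrial UMIs as a percent of its UMIs. In 33756 of 33756 P5 cells the column sum equals the deposited count. Filters on cells are not given in the sources used here. Cell barcodes begin with other library numbers than the titles, 1 to 1, and the library column was followed.

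Counts were summed per library and cell type (at least 20 cells) and tested with edgeR 4.0.16 in R 4.3.3: TMM, filterByExpr, 12 sums in 1 quasi-likelihood fit with library as a block, two-sided, Benjamini-Hochberg over all 13782 genes, called at an adjusted p under 0.05. The pairing comes from the libraries themselves: deviations from the type means correlated within a library at 0.466 to 0.617 for bipolar cells and rods (5124 genes), 0.636 to 0.676 for bipolar and neurogenic cells, and 0.430 to 0.540 for rods and neurogenic cells. On simulated counts for bipolar cells against rods (13752 genes), 50 of 50 genes raised 4-fold, 49 of 50 lowered to 0.25-fold, 33 of 50 raised 2-fold and 34 of 48 lowered to 0.5-fold were called, with 6 of 13554 unchanged genes. In the simulation few genes were changed, up and down alike, and every gene had the same dispersion. Most genes were called in the data, so these counts do not give the error rate of the real comparison.

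Named genes were list members and, by size, the 12 largest differences per direction between bipolar cells and rods and the 4 largest against neurogenic cells, among called genes with a mean of at least 100 CPM in the higher type and no overlap. Some of them are not reported here, but counts over lists include them. The comparison, the 12 lists and the marker lists were chosen with earlier results of these data known. Other settings were a fit with DESeq2 1.42.0, library size in place of TMM, all genes with a UMI, only the types compared, no block, at least 50 cells, no doublets (Scrublet in scanpy 1.11.5, expected 6%), thinned sums and each library left out. Added after seeing the data were cells with at least 5000 UMIs and each neurogenic cluster alone. Cells were thinned to 2000 UMIs for shares (1000 as an alternative). Promoters came from the RefSeq table for GRCm38.p6, and gene positions and types from GENCODE vM21. Intervals and depth limits cover counting error only.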

Additional observations from a re-analysis of the deposited data

Results flagged for a closer look

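Among 33 values tested for a library far from the other 3, 3 stood out, and chance marks about 1 group in 20. The log2 ratio of bipolar cells to rods for Rdh12, a retinol dehydrogenase of photoreceptors, was -3.89 in control 1, above the other libraries, whose highest was -4.97. For Rp1l1 it was -3.60 in control 1, and the next was -5.04. Control 1 also had the highest median share of rod transcripts in bipolar cells (7.39% of the rod level) and the highest mitochondrial share, and their part in these values was not tested. The median depth of neurogenic cells was 7686 UMIs in control 3 and 16284 to 17277 in the others.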

How the results depend on the processing

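Of 280 results on single genes, 213 kept their direction where called and their side of the threshold under every setting run for them. In 55 of 3764 comparisons a gene that was called in neither setting had another sign. No result between bipolar cells and rods changed direction, while 15 results against neurogenic cells did when 1 neurogenic cluster was the start. With cluster 11 alone, the log2 difference of bipolar cells was 1.90 for Abca4, 1.08 for Bhlhe22, 1.84 for Crx, 0.66 for Ldha, 0.75 for Meis2, 1.40 for Neurod1, 1.07 for Prdm1 and 3.82 for Tacr3, all below 0 with both clusters. For rods it was 2.60 for Car10, 1.25 for Grik1 and 2.89 for Prdm8, again all below 0 with both. With cluster 4 alone it was 2.22 for Irx5 and -0.37 for Otx2 in bipolar cells, and -0.69 for Abca4 and -0.54 for Otx2 in rods. The 2 clusters differ in the levels of several of these genes. Without the replicate block, 1943 genes were higher in bipolar cells than in neurogenic cells (3061 with it), and 24 named genes lost their call between bipolar cells and rods and 2 between bipolar and neurogenic cells. Thinning to 1000 UMIs lowered the share of cells with a Grm6 UMI to 32.8% of bipolar cells, and with an Otx2 UMI to 55.5% of bipolar cells, 48.8% of rods and 44.7% of neurogenic cells. Leaving out each library in turn gave 3341 to 3768 genes higher in bipolar cells than in rods and 3564 to 3898 higher in rods, 2226 to 2766 genes higher and 2359 to 2850 lower in bipolar cells than in neurogenic cells, and 3948 to 4259 higher and 3824 to 4231 lower in rods than in neurogenic cells. The comparison with P2 was not run, since 1 P2 control library held at least 20 bipolar cells, and a minimum of 50 cells kept the same sums. Amacrine cells were fewest at 2000 UMIs (1101), which limits the precision of their low shares.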
